A study of Homo sapiens with 4 samples.

Results

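Chromatin contacts and H3K27ac signal were examined at the start sites of 9 genes of WNT signalling in colorectal cancer cell lines. The genes were LGR5, RNF43, ZNRF3, NOTUM, ASCL2, SP5, TCF7, LEF1 and TRIB2. They were chosen by name and position, with earlier results of these data known. A gene was given every anchor reaching within 5 kb of its start site (hg19 build, positions rounded to the nearest kilobase). The 9 windows held 48 of the 40696 loops of HCT116, 115 of the 74401 of LS513, 22 of the 7024 of SW480 and 108 of the 62104 of SW620. Over the genome, 47454 windows of the same 10 kb width held an anchor in at least 1 library.

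WNT ligands bind Frizzled receptors, which stabilises β-catenin, and β-catenin then acts on genes through DNA-binding partners of the TCF and LEF family. In the intestinal crypt this pathway maintains stem cells. Many of its targets feed back on it: ligases that remove the receptors, a secreted enzyme that inactivates the ligand, and the DNA-binding factors themselves. Acetylation of histone H3 at lysine 27 (H3K27ac) marks active promoters and enhancers.

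HiChIP ligates DNA segments that lie close together in fixed nuclei and enriches the ligated pairs for a chromatin mark, here H3K27ac. All 4 lines are established human colorectal cancer lines from ATCC, were untreated and had 1 library each. HCT116 is labelled a colorectal carcinoma, LS513 and SW620 carry the label Dukes' type C, and SW480 Dukes' type B. SW480 and SW620 were derived from the primary tumour and a lymph node metastasis of the same patient, so they are not independent tumours. As background, HCT116 carries a stabilising mutation of the β-catenin gene, and SW480 and SW620 carry truncated APC. The labelled cell type was not checked against markers, since genes outside the 9 windows were not assigned to anchors.

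A loop is a pair of anchors whose midpoints lie 5 kb to 2 Mb apart, and its value is its number of paired-end tags (PETs). Pairs of an anchor with itself are called same-anchor PETs and serve as a measure of H3K27ac signal at that anchor. Normalised values are per 1000000 loop PETs, or per 1000000 same-anchor PETs, of the library. The libraries held 81579 (HCT116), 222113 (LS513), 13885 (SW480) and 152421 (SW620) loop PETs. A count of 0 therefore allows up to 36.8, 13.5, 216 and 19.7 normalised loop PETs, taking a floor of 3 counts. SW480 was the shallowest, and its windows had normalised loop PETs with a median 1.83 to 2.09 times those of each other library where both had PETs. HCT116 and LS513 share nearly all anchors (21810 identical), while SW480 and SW620 each have their own set. Where a line has no anchor at a gene, its contacts there were not counted, which is not a measured 0. Intervals are exact conditional 95% intervals of a ratio and cover counting error only, because PETs carry no molecular identifiers and no line has a replicate.

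The windows held an anchor for 7 genes in HCT116, LS513 and SW480 and for 8 in SW620. Of these genes, 6, 7, 6 and 7 had a loop. Among all windows with an anchor, 85.7%, 93.0%, 68.9% and 92.4% held a loop, so having one was not particular to these genes. The 9 genes together had 206 (HCT116), 817 (LS513), 90 (SW480) and 591 (SW620) loop PETs. Loops made up 17.5%, 26.9%, 21.1% and 26.5% of their loop and same-anchor PETs, against 8.64%, 13.8%, 9.62% and 15.3% in the whole libraries. In the library shares each loop is counted once and not at both of its anchors, while a window counts every loop reaching it. The library shares are therefore no like baseline for the genes. NOTUM alone supplied 72.3% of the genes' loop PETs in HCT116 and 55.4% in LS513, but 26.7% and 25.9% in the SW480 and SW620 libraries. These shares are over whole anchors and cover unlike stretches of DNA. The NOTUM anchor spans 66.7 kb where its share is high, against 13.4 (SW480) and 15.3 kb (SW620). How much of the drop comes from width was not tested, and per kilobase the NOTUM loop ratios of SW480 and SW620 to HCT116 and LS513 turned direction. Without NOTUM the loop share was 12.3%, 21.1%, 23% and 27.9%. In the authors' deposited table, 41.7%, 39.1%, 36.4% and 34.3% of the genes' loops had a value below 0.01, read here as a false discovery rate (FDR). Without NOTUM this share was 22.7%, 35.7%, 33.3% and 31.0%, and for all loops it was 12.8%, 18.2%, 14.5% and 17.2%.

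**Figure D1:**
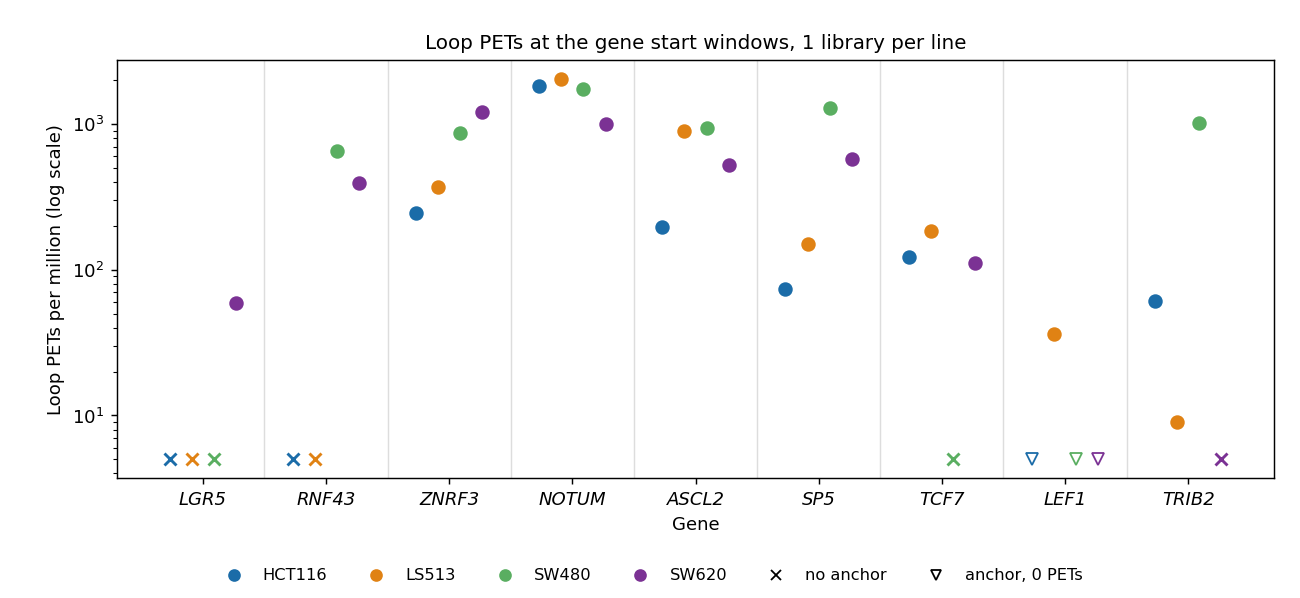
Normalised loop PETs (per 1000000, log axis) at each gene in each line, 1 point per library. Crosses mark a line with no anchor and open triangles an anchor with 0 loop PETs; the height of those marks carries no value. NOTUM lies between 1004 and 2039.5 in the 4 lines, over anchors of unequal width, whereas LGR5 and RNF43 have no anchor in HCT116 or LS513.

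LGR5, the R-spondin receptor that marks crypt stem cells, had an anchor only in the SW620 library. That anchor had 9 loop PETs (59.0 normalised) in 5 loops and 3 same-anchor PETs. Its main partner lay 28.5 to 33.0 kb toward higher coordinates with 3 PETs. The longest loop under the FDR of 0.01 reached 221 to 226 kb with 2 PETs. Same-anchor signal was thus at the floor of the library, above that of only 15.6% of windows with an anchor, and loop PETs were above those of 51.2%.

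RNF43 and ZNRF3 are related transmembrane E3 ubiquitin ligases that remove Frizzled receptors from the cell surface, an action that R-spondin and LGR5 counter. RNF43 had 9 loop PETs in SW480 (648 normalised) and 60 in SW620 (394), and no anchor in HCT116 or LS513. Its same-anchor PETs were 21 (161) and 76 (90.0). The ratio of SW480 to SW620 was 1.65 for loops, with an interval of 0.718 to 3.34 that includes 1. It depended on the window: at 10 kb it was 2.46 (1.36 to 4.19), a call, and at 2 kb the SW480 anchor falls outside. Nearly all contacts ran toward lower coordinates, the side on which the gene is transcribed, with 9 of 9 PETs in SW480 and 56 of 60 in SW620. Both lines contacted the segment at -44.7 to -12.3 kb (chr17:56450319-56482659), with 8 PETs in SW480 and 22 in SW620. SW620 had a second partner at -99.7 to -76.3 kb with 23 PETs. SW480 had an anchor there and 0 PETs to RNF43, but 23 PETs in SW620 are 151 normalised, below the floor of 216 in SW480, so the difference was not detectable at this depth. In SW480 the RNF43 anchor ended 2.21 kb short of the start site.

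ZNRF3 had 20 loop PETs in HCT116 (245 normalised), 82 in LS513 (369), 12 in SW480 (864) and 185 in SW620 (1214). That SW620 value comes from 2 anchors: one over the start site, and a 49.1 kb anchor beginning 4.54 kb from it and ending at 53.7 kb. The anchor over the start site alone had 54 loop PETs (354) and 91 same-anchor PETs (108), against 100.2 normalised same-anchor PETs in LS513. SW620 was 3.29-fold above LS513 with both anchors (2.52 to 4.32). With a window of 2 kb, which leaves the wide anchor out, the ratio was 0.960 (0.668 to 1.37). Against HCT116 the same change took the ratio from 4.95 to 1.45, and a window of 10 kb gave 1.62. At 10 kb the matching wide anchor of HCT116 and LS513, which begins at 5.93 kb, falls in the window too.

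A pair of segments was contacted by ZNRF3 in all 4 lines. The segment from 5.93 to 53.7 kb (chr22:29285928-29333692) was contacted by 11 PETs of HCT116, 44 of LS513, 5 of SW480 and 26 of SW620. A segment 137 to 157 kb away (chr22:29417022-29437000) had 6 PETs in HCT116, 14 in LS513 (63.0 normalised) and 3 in SW480. The start-site anchor of SW620 had 8 PETs to it (52.5 normalised), and the wide anchor had 36. Of the 31 loops of both SW620 anchors, 18 had a partner that ZNRF3 also contacted in LS513, 9 in HCT116 and 8 in SW480. A partner joined to both SW620 anchors was counted for each of them. Both segments lie toward higher coordinates, the direction in which ZNRF3 is transcribed, as did 19 of 20 loop PETs in HCT116 and 163 of 185 from both anchors of SW620. The longest SW620 loop under the FDR of 0.01 reached 421 to 432 kb with 2 PETs.

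NOTUM, a secreted enzyme that removes the lipid WNT needs for receptor binding, had the most loop PETs of the 9 genes in HCT116, LS513 and SW480. The counts were 149 in HCT116 (1826 normalised), 453 in LS513 (2039.5), 24 in SW480 (1728) and 153 in SW620 (1004). These values exceeded those of 99.8%, 99.9%, 96.8% and 98.9% of windows with an anchor. HCT116, LS513 and SW480 did not differ beyond counting error over whole anchors: the ratio was 0.896 for HCT116 to LS513 (0.739 to 1.08) and 0.848 for SW480 to LS513 (0.537 to 1.28). SW620 was lowest at 0.492 of LS513 (0.407 to 0.592). That ratio passed the 2-fold limit narrowly: it was 0.514 with loops of at least 2 PETs and 0.546 when scaled by all same-chromosome PETs. Same-anchor PETs were 656, 619, 881 and 598 normalised. The ratio of SW620 to LS513 was 0.965 (0.863 to 1.08) over anchors of unequal width. The HCT116 and LS513 anchor was 66.7 kb wide, that of SW480 13.4 kb and that of SW620 15.3 kb. Per kilobase of anchor the loop ratios turned to 2.14 for SW620 to LS513, 2.39 for SW620 to HCT116, 4.73 for SW480 to HCT116 and 4.23 for SW480 to LS513. The same-anchor ratios of SW620 turned to 4.20 against LS513 and 3.96 against HCT116.

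NOTUM partners also differed between libraries. HCT116 and LS513 had their main partner at 27.9 to 78.0 kb toward higher coordinates (chr17:79946860-79996995), with 51 and 173 PETs. All 24 loop PETs of SW480 went to an overlapping segment, 27.1 to 49.2 kb away. SW620 had no anchor there. Its main partner was at 13.5 to 22.6 kb with 59 PETs, where HCT116 had 8 and LS513 31. A partner on the other side, at about -104 to -86.9 kb, had 34 PETs in HCT116 and 89 in LS513, and the overlapping anchor of SW620 had 14. The second partner of SW620, at -60.5 to -18.4 kb with 39 PETs, overlaps the wide NOTUM anchor of HCT116 and LS513, so such contacts lie mostly within 1 anchor there. The longest NOTUM loop of LS513 under the FDR of 0.01 reached a partner at -2035 to -2008 kb with 2 PETs.

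**Figure D2:**
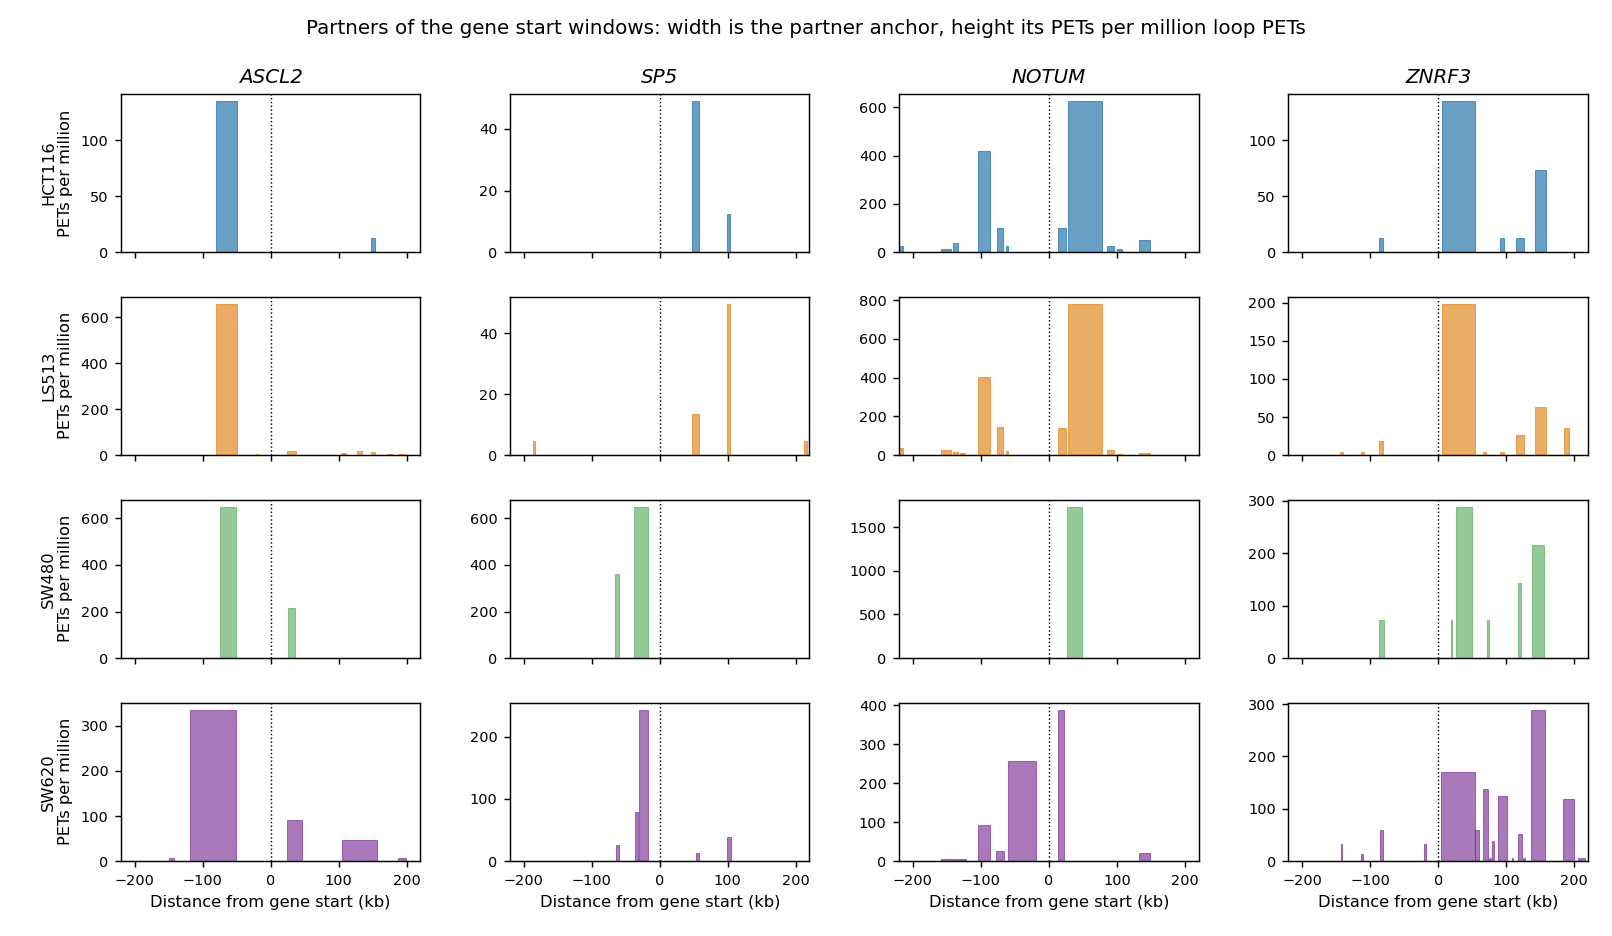
Partners of the start-site windows of the genes with shared segments, one column per gene and one row per line. Each bar spans a partner anchor (distance from the start site in kb, toward higher coordinates to the right) and its height is normalised loop PETs, on a separate scale in each panel. For ZNRF3 in SW620 the contacts of both its anchors are added. The segment left of ASCL2 at -79.8 to -49.9 kb is present in all 4 rows. The segment left of SP5 at -38.6 to -17.4 kb shows in SW480 and SW620, and HCT116 and LS513 have no anchor there.

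ASCL2 is a basic helix-loop-helix factor of intestinal stem cells. It had 16 loop PETs in HCT116 (196 normalised), 198 in LS513 (891), 13 in SW480 (936) and 80 in SW620 (525). LS513 and SW480 were highest and did not differ beyond counting error (ratio 1.05, 0.549 to 1.84). SW620 followed, below LS513 (0.589, 0.448 to 0.767) and not separable from SW480 (1.78 for SW480 to SW620, 0.910 to 3.23). SW480 was called higher per kilobase of anchor, at 2.96 to LS513 and 5.68 to SW620, and higher than SW620 when scaled by the PETs of the chromosome (2.51) or with loops of 2 or more PETs (2.03). HCT116 was lowest. HCT116 was at 0.220 of LS513 (0.123 to 0.366), and the 2 libraries have the same 19.3 kb anchor. Normalised same-anchor PETs were 92.7 (HCT116), 230.1 (LS513), 161 (SW480) and 173 (SW620), and HCT116 was at 0.403 of LS513 (0.311 to 0.516). Both calls held under every alternative run for them. SW620 was 2.68-fold above HCT116 in loop PETs (1.55 to 4.91), a call that ended at 1.94 when scaled by the PETs of the chromosome.

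One partner took most ASCL2 contacts in each line. It lies at -79.8 to -49.9 kb, toward lower coordinates, in HCT116 and LS513 (chr11:2212178-2242143), and anchors of SW480 (-74.8 to -50.6 kb) and SW620 (-118 to -51.0 kb) overlap it. It was joined to ASCL2 by 11 PETs of HCT116, 146 of LS513, 9 of SW480 and 51 of SW620. That was 68.8%, 73.7%, 69.2% and 63.8% of ASCL2 loop PETs. Seen from the partner, ASCL2 took 44.0% of its loop PETs in HCT116 and 67.0% in LS513, with 75% in SW480 against 31.9% in SW620. The partner's own same-anchor PETs were 229, 689, 1333 and 1099 normalised, again lowest in HCT116. These shares and values cover whole anchors of unequal width, the SW620 anchor (-118 to -51.0 kb) being the widest.

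SP5 is a zinc-finger factor and a direct target of β-catenin in many tissues. Promoter sequences came from RefSeq, which listed 7 promoters for 5 of the 9 genes (RNF43, SP5, TCF7, LEF1 and TRIB2). They are shown for SP5, whose loops set SW480 and SW620 apart, for RNF43 (the first of its 2 promoters), whose anchor is listed only in those lines, and for LEF1, which had signal and almost no loops. Each runs 5′ to 3′ on the gene's strand, from 250 bases before to 50 after the listed start, in the GRCh38.p14 build, while all other coordinates are hg19. Positions were not converted between builds, so a listed start was not matched to the start site of its window and may differ from it. Capitals mark matches to the TCF and LEF core motif, searched on both strands in the forms CTTTGAA or CTTTGAT, and also CTTTGTA or CTTTGTT.
SP5 (chr2:170715087-170715386, plus strand): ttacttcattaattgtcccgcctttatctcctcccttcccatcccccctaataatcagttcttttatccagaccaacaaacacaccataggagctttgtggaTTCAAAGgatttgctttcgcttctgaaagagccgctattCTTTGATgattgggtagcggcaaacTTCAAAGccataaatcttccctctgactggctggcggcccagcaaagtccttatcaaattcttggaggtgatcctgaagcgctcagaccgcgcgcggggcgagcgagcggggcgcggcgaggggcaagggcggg
RNF43 (chr17:58417485-58417784, minus strand): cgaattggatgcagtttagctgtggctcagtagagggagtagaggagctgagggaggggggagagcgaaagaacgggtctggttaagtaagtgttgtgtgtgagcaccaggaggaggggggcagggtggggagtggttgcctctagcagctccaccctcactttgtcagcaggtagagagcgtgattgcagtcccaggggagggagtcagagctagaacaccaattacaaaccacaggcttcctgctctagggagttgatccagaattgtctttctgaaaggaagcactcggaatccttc
LEF1 (chr4:108166252-108166551, minus strand): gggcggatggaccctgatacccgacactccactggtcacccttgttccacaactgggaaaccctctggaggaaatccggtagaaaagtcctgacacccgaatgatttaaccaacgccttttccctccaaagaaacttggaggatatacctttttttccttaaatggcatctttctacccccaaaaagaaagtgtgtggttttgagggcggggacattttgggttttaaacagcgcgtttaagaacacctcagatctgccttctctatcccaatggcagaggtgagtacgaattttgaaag

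SP5 had 3 matches, at -148, -109 and -84 from the start, the middle one on the gene's strand and the others on the opposite strand. Of 35116 promoters of this length, 13.8% had at least 1 match and 0.179% (63 promoters) had at least 3. The second TCF7 promoter had 1 match, and the other 5 promoters had none. A match is a description of letters and no evidence of binding.

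SP5 had 6 loop PETs in HCT116 (73.5 normalised), 33 in LS513 (149), 18 in SW480 (1296) and 87 in SW620 (571). From high to low the order was SW480, SW620, LS513 and HCT116, and the first 2 were far above the others. SW620 was 3.84-fold above LS513 (2.55 to 5.92) and 7.76-fold above HCT116 (3.42 to 21.7). SW480 was 8.73-fold above LS513 (4.63 to 16.0). These calls held under every alternative run for them, none of which was limited to partners with an anchor in both libraries. Of the PETs, 49 in SW620 and 9 in SW480 went to a segment at -38.6 to -17.4 kb, where HCT116 and LS513 have no anchor. The folds therefore include contacts that could not be counted in the other lines. Partners found in both libraries held 15 of 87 SW620 PETs and 21 of 33 LS513 PETs. Of the 18 SW480 PETs, 2 went to partners found in LS513. SW480 and SW620 differed by 2.27-fold (1.29 to 3.80), but by 1.30-fold when scaled by the PETs of the chromosome. HCT116 and LS513 did not differ beyond counting error in loop PETs (0.495, 0.170 to 1.20), but HCT116 was called lower when scaled by all same-chromosome PETs (0.312, 0.107 to 0.755) and under the FDR of 0.01 (0.465, with HCT116 at the floor).

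Normalised same-anchor PETs at SP5 were 81.1 (HCT116), 226 (LS513), 590.0 (SW480) and 360.0 (SW620). SW620 was 1.59-fold above LS513 (1.35 to 1.87), less than the 3.84-fold of loop PETs. That loop ratio includes contacts to a segment without an anchor in LS513, so the 2 folds are not alike. The SP5 anchors are of similar width, 7.59 to 10.3 kb. In SW480 the main partner lay at -38.6 to -17.4 kb (chr2:171533404-171554618), upstream of the gene, with 9 PETs. In SW620 the same segment held 2 partners with 49 PETs in all, and SP5 took 57.6% of the loop PETs of those partners. HCT116 and LS513 have no anchor in that segment, so contacts to it were not counted in them. The main partner of LS513 was at 99.0 to 103 kb with 11 PETs, where SW620 had 6 and HCT116 1. HCT116 had its main partner at 46.8 to 57.8 kb with 4 PETs. SW620 had a further partner at -265 to -258 kb with 14 PETs, and the longest SW480 loop under the FDR of 0.01 ended at -65.6 to -60.1 kb with 5 PETs.

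**Figure D3:**
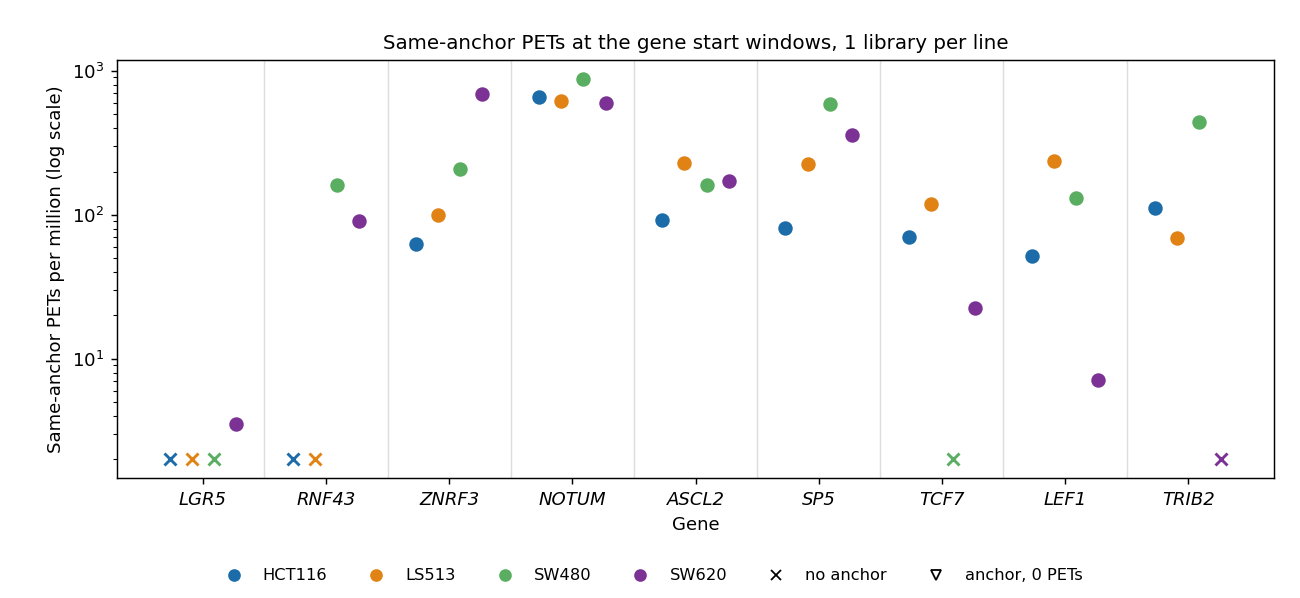
Normalised same-anchor PETs (per 1000000, log axis), the measure of H3K27ac signal at the start-site anchor, for each gene and line, 1 point per library. Crosses mark a line with no anchor, and their height carries no value. LEF1 runs from 7.10 in SW620 to 238 in LS513, while NOTUM stays between 598 and 881.

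TCF7 and LEF1 are the HMG-box partners through which β-catenin reaches DNA. TCF7 had 10 loop PETs in HCT116 (123 normalised), 41 in LS513 (185) and 17 in SW620 (112), and no anchor in SW480. With all loops counted, the 3 lines did not differ beyond counting error: HCT116 was at 0.664 of LS513 (0.297 to 1.35), SW620 at 0.604 of LS513 (0.322 to 1.09) and at 0.910 of HCT116 (0.393 to 2.22). Counting only loops with 2 or more PETs put SW620 below LS513 by the call rule (0.278, 0.0955 to 0.671) as did the FDR of 0.01 (0.289), and HCT116 was called lower than LS513 when scaled by all same-chromosome PETs (0.419). Same-anchor PETs did differ, at 70.7, 118 and 22.5 normalised. SW620 was at 0.191 of LS513 (0.112 to 0.309), and its signal is split over 2 short anchors beside the start site, 1.77 and 2.85 kb wide. The main partner in LS513, at -24.5 to -20.6 kb, had 12 PETs and none in HCT116 or SW620, both of which have an anchor there. That partner is 54.0 normalised in LS513, above the floors of 36.8 and 19.7 in those libraries. HCT116 had its main partner at -99.5 to -83.6 kb with 3 PETs, and SW620 at 6.05 to 12.4 kb with 3 PETs in its largest loop. The longest LS513 loop under the FDR of 0.01 reached 386 to 403 kb with 2 PETs.

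LEF1 had an anchor in all 4 libraries and loops in LS513 alone. LS513 had 8 loop PETs there (36.0 normalised), and the other 3 libraries had 0. The LS513 value lies below the HCT116 floor of 36.8 and the SW480 floor of 216, so a difference from those libraries was not detectable. HCT116 had 45 same-anchor PETs (52.1), LS513 had 330 (238), SW480 had 17 (130.3) and SW620 had 6 (7.10). Over these whole anchors LS513 was highest, SW480 next, then HCT116 and SW620. SW480 was at 0.547 of LS513 (0.315 to 0.890), short of a 2-fold difference. With a window of 2 kb the SW480 anchor falls outside, so its place in this order depends on the window. HCT116 was at 0.219 of LS513 with the same anchor (0.157 to 0.300), and SW620 at 0.0299 of LS513 (0.0109 to 0.0657). The anchors of SW480 and SW620 do not reach the start site and are 4.06 and 2.47 kb wide, against 11.5 kb in HCT116 and LS513. In LS513 the LEF1 anchor had more same-anchor PETs than 93.9% of windows with an anchor but more loop PETs than only 41.5%. Loops were 2.37% of its loop and same-anchor PETs, against 13.8% in the library, where each loop is counted once and not at both of its anchors. Its main partner was at 450.1 to 454 kb with 3 PETs.

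TRIB2, a pseudokinase of the Tribbles family, had 5 loop PETs in HCT116 (61.3 normalised), 2 in LS513 (9.0) and 14 in SW480 (1008), and no anchor in SW620. The SW480 value was 16.5-fold above HCT116 (5.60 to 58.4) and 112-fold above LS513 (25.7 to 1015), the latter resting on 2 counts. The anchor was 19.8 kb wide in SW480 and 3.08 kb in the other 2, and per kilobase of anchor the ratio to HCT116 was 2.55 (0.868 to 9.05). SW480 had 10 of its PETs to a segment at 55.2 to 64.7 kb, where HCT116 and LS513 have no anchor. All 5 PETs of HCT116 went to a segment at -889 to -885 kb, which had 1 PET in LS513. Same-anchor PETs were 111 in HCT116, 68.5 in LS513 and 444 in SW480. Per kilobase of anchor the SW480 ratios turned to 0.620 against HCT116 and 1.01 against LS513.

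**Figure D4:**
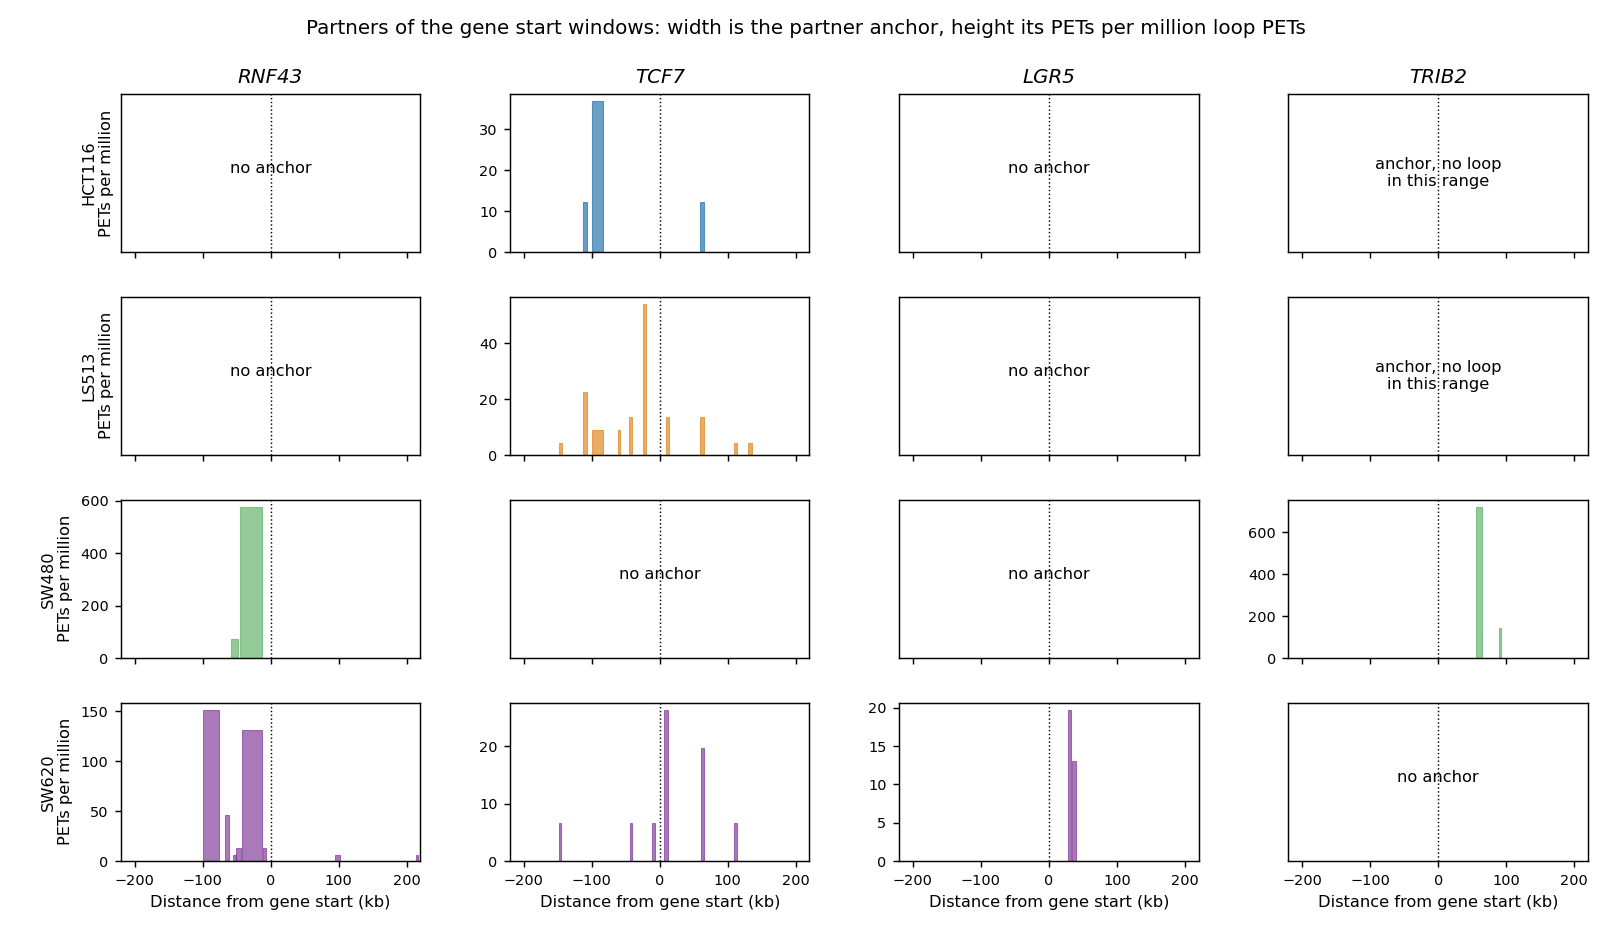
Partners of RNF43, TCF7, LGR5 and TRIB2 within 220 kb of the start site (distance in kb, higher coordinates to the right), one row per line. Bars span a partner anchor and rise to its normalised loop PETs, each panel on its own scale. RNF43 has bars in SW480 and SW620, mostly left of the start, and LGR5 only in SW620.

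Across pairs of lines, a gene was called different where the ratio of normalised PETs was at least 2 either way, its interval lay on that side of 1 and the higher library had at least 10 PETs. A count of 0 was set to the floor of 3 counts. The same rule was applied to all 10 kb windows with PETs in either library, and that share is the background. It includes windows with too few PETs to be called, and no share among windows of like PET count was computed. In all, 97 ratios were computed over 6 pairs of lines, and no p-value was given, since each line had 1 library.

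HCT116 and LS513, which share their anchors at all 7 genes that have one, had the fewest calls by loop PETs. Called was 1 gene of 7 (ASCL2, lower in HCT116), against 8.93% of windows, 4.66% in that direction. All 7 have an anchor in both libraries. By same-anchor PETs 3 of 7 were called (ASCL2, SP5 and LEF1, all lower in HCT116), against 20.4% of windows. Among windows 14.0% were higher in HCT116 and 6.40% lower: their median ratio of HCT116 to LS513 was 1.16 for same-anchor PETs, and that of the 7 genes 0.601. TRIB2, at 1.62 (1.21 to 2.18), was above 1 in HCT116.

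SW620 differed from HCT116 in loop PETs at 4 of 8 genes (ASCL2, RNF43, ZNRF3 and SP5, all higher in SW620), against 24.2% of windows, 16.0% in that direction. RNF43 has no anchor in HCT116 or LS513, so its calls set uncounted contacts at the floor and give no measured fold. With an anchor in both libraries, 3 of 5 genes were called, against 21.7% of windows. Against LS513, 4 of 9 were called (RNF43, ZNRF3 and SP5 higher and NOTUM lower), against 32.7% of windows. With an anchor in both it was 3 of 6, against 28.9%. In same-anchor PETs SW620 differed from HCT116 at 6 of 9 genes and from LS513 at 5 of 9, with backgrounds of 50.7% and 50.5%, which are near those shares. LEF1 and TCF7 were lower in SW620 in both pairs, and ZNRF3 higher. SP5 was higher in SW620 than in HCT116 (4.44, 3.41 to 5.84) and was not called against LS513. TRIB2, without an anchor in SW620, and RNF43, without one in the other line, were called against the floor. The LEF1 call against HCT116 ended per kilobase of anchor (0.637, with an interval that includes 1). The ZNRF3 calls ended at 2 kb (1.72 against HCT116 and 1.07 against LS513) and at 10 kb (1.27 and 1.19).

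SW480 differed from HCT116 in loop PETs at 4 of 7 genes (ASCL2, ZNRF3, SP5 and TRIB2), against 8.28% of windows. With an anchor in both libraries it was 4 of 5, against 14.8%. From LS513 it differed at 3 of 8 (ZNRF3, SP5 and TRIB2), against 8.34%, and from SW620 at 2 of 8 (SP5 and TRIB2), against 7.81%. With an anchor in both libraries these were 3 of 6, against 15.4%, and 1 of 5, against 13.7%. All these genes were higher in SW480, in which 4.50%, 4.27% and 3.93% of windows were called higher than in HCT116, LS513 and SW620. A call needs 10 PETs in the higher library. In SW480, 9 loop PETs (RNF43) already exceeded those of 86.6% of windows with an anchor. Most windows therefore could not be called higher in SW480, and these shares are no like baseline for genes with 10 or more PETs. Windows also ran high in SW480 by their medians, and some calls ended under alternatives. ASCL2 against HCT116 was not called with only loops under the FDR of 0.01 (4.54, 1.66 to 12.1). ZNRF3 lost both calls under that FDR, with loops of at least 2 PETs and in the 10 kb window (1.16 against HCT116 and 0.857 against LS513), and the call against LS513 also when scaled by all same-chromosome PETs (1.65). SP5 lost its call against SW620 when scaled by the chromosome, and TRIB2 against HCT116 per kilobase. By same-anchor PETs the counts were 6 of 8 against HCT116, 5 of 8 against LS513 and 3 of 9 against SW620, with backgrounds of 36.9%, 34.7% and 33.7%.

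**Figure D5:**
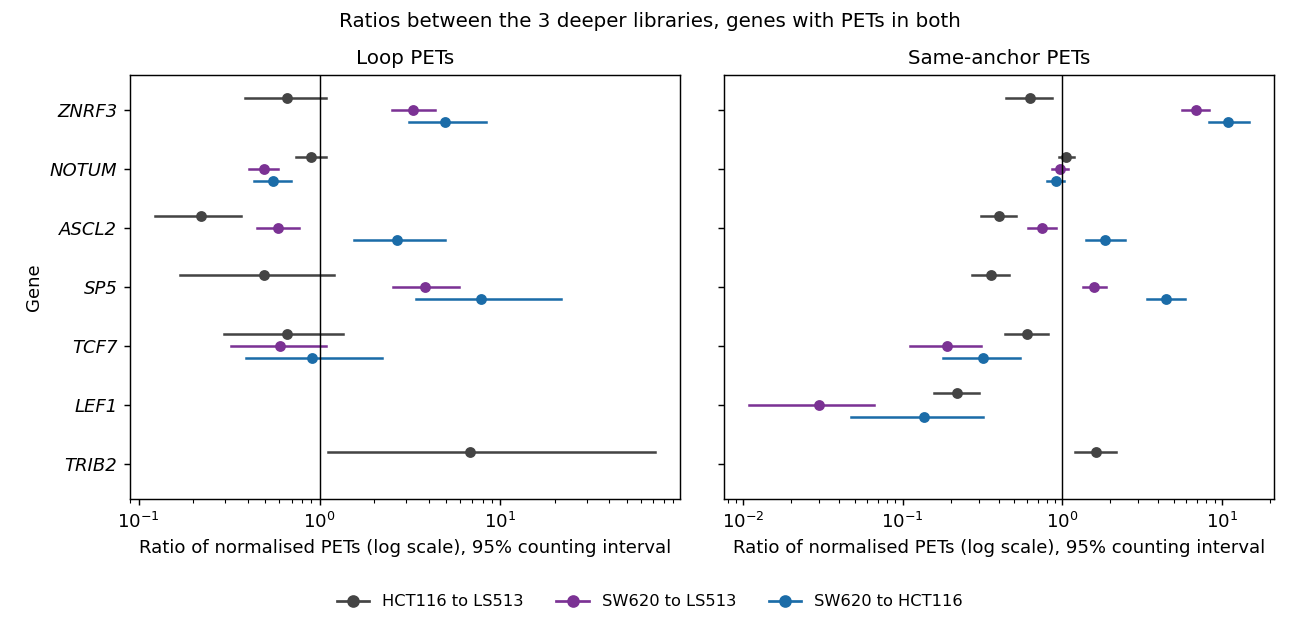
Ratios of normalised PETs between the 3 deeper libraries for the genes with PETs in both (log axis), loop PETs on the left and same-anchor PETs on the right. Points are ratios and lines are 95% counting intervals, and the vertical line marks 1. LGR5 and RNF43 are left out because HCT116 and LS513 have no anchor there. SP5 lies right of 1 in both SW620 ratios.

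Partners were compared where both lines have an anchor at the gene, counting a partner as found where the anchors overlap by at least 1 base and the second library has a loop. The same count over all 10 kb windows with an anchor in the second library, each loop counted in every window it touches, stands beside each share. LS513 held 41 of the 48 loops of HCT116 (85.4%, all windows 66.1%), and HCT116 held 35.7% of the 115 of LS513 (all windows 37.7%). NOTUM alone supplied 26 of those 48 HCT116 loops and 25 of the 41 found. SW620 held 15 of the 18 loops of SW480 (83.3%, all windows 59.1%), and SW480 held 21.1% of the 90 of SW620 (all windows 14.4%). SW620 loops were found in LS513 at 59.8% (47.1%) and in HCT116 at 31.5% (33.0%). In the SW620 shares a partner joined to both anchors of a gene, as at ZNRF3, was counted for each of them. In each pair the shallower library's loops were found more often in the deeper one than the reverse. Of the SW620 loops, 43 had no anchor at the partner in SW480, and 21 had none in LS513, so these could not have been found.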

How the data were processed

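Each of 4 untreated lines had 1 H3K27ac HiChIP library. HiC-Pro (no version recorded) and the hg19 build are named, per the submitters' processing notes. The loop caller is not given in the sources used here. Each pair of anchors had a deposited count of PETs, in 3 kinds of table: pairs on 1 chromosome (same-anchor pairs included), filtered loops, and pairs between chromosomes. A further deposited column without a header, named for the mango model, held a number from 0 to 1 per loop, taken to be a p-value that the authors adjusted for multiple testing (FDR). Chromosomes 1 to 22 and X were used, which left out 5 loops in LS513.

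The 9 genes and the lists were chosen with earlier results of these data known. Counts were summed over anchors reaching within 5 kb of each start site and divided by the library's PETs. Ratios carry exact conditional 95% intervals (SciPy 1.17.1, pandas 2.3.3, Python 3.11.15). All 9 genes were named, with each line's loop of most PETs and the longest loop under an FDR of 0.01. Other WNT genes and cell type markers were not analysed here, since no hg19 annotation was used. Promoter sequences are from RefSeq (GRCh38.p14). Other windows, loop filters and scalings were tried as alternatives.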

Additional observations from a re-analysis of the deposited data

Results flagged for a closer look

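Same-chromosome PETs that are neither loops nor same-anchor pairs amounted to 20 (HCT116), 76 (LS513), 11 (SW480) and 49 (SW620) PETs at the 9 windows. Among them 2 single pairs of anchors had more than the floor of 3 PETs, and both join neighbouring anchors whose midpoints are less than 5 kb apart. RNF43 had 4 PETs in such a pair in SW480, and TCF7 had 7 PETs in SW620 between its 2 anchors. The study has no control library to set beside them.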

How the results depend on the processing

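The alternatives were windows of 2 and 10 kb, loops of at least 2 PETs, loops under the FDR of 0.01, and scaling by the chromosome's or all same-chromosome PETs. Counting only genes with an anchor in both libraries, and dividing by kilobases of anchor, were added after seeing the data. Genes called on loop PETs for HCT116 against LS513 went from 1 to 2 under the FDR filter and 4 when scaled by all same-chromosome PETs. For SW480 against HCT116 they went from 4 to 2 under the FDR filter, and for SW480 against LS513 from 3 to 5 per kilobase. For SW480 against SW620 they went from 2 to 4 with loops of at least 2 PETs and to 1 with an anchor in both. Genes called on same-anchor PETs per kilobase were 3 for SW620 against HCT116 (6 otherwise), 3 for SW620 against LS513 (5), 3 for SW480 against LS513 (5) and 5 for SW480 against SW620 (3). With an anchor in both they were 3 for SW620 against LS513 and 3 for SW480 against LS513. SW620 partners found in SW480 rose to 31.1% with anchors within 5 kb. Ratios that turned direction, with a call before or after, were these. ZNRF3 loop ratios per kilobase were 0.555 for SW620 to HCT116 and 0.369 for SW620 to LS513, the latter 0.960 in the 2 kb window, and SW480 to LS513 was 0.857 in the 10 kb window. Its loop ratio of SW480 to SW620 was 2.44 in the 2 kb window and 15.0 per kilobase. Its same-anchor ratio was 0.767 for SW620 to LS513 per kilobase, 0.382 and 0.359 for SW480 to HCT116 and LS513 in the 10 kb window, and 1.92 and 6.36 for SW480 to SW620 in the 2 kb window and per kilobase. NOTUM loop ratios per kilobase were 2.14 (SW620 to LS513), 2.39 (SW620 to HCT116), 4.73 (SW480 to HCT116) and 4.23 (SW480 to LS513), and its same-anchor ratios 4.20 (SW620 to LS513) and 3.96 (SW620 to HCT116). Same-anchor PETs for SW480 to HCT116 were 0.441 at LEF1 in the 2 kb window and 0.620 at TRIB2 per kilobase. For SW480 to SW620 they were 0.255 at RNF43 in the 2 kb window and 2.96 at ASCL2 per kilobase. The cause of these changes was not tested, except that the windows and widths add or remove anchors by construction. No paired analysis was possible because each line had 1 library.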

Other observations

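Pairs between chromosomes were present at the 9 windows, with 66 (HCT116), 180 (LS513), 13 (SW480) and 174 (SW620) PETs, and 0 PETs joined one of the genes to another in any library. Among all windows with an anchor, 80.8%, 90.7%, 55.7% and 88.9% had such PETs.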
